A study of Mus musculus with 6 samples.

Results

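Laminins, nidogens and integrins build the basement membrane and fasten cells to it, and this report follows 34 of their genes in the embryonic mouse genital tubercle. The 34 were taken as a list: 10 laminin chains, Nid1, Nid2, Hspg2 (perlecan), Agrn (agrin), Npnt (nephronectin), Dst, Plec, Cd151 and 16 integrin subunits. They are 34 of 18193 genes with a probe set of their own on the array, and 89 probe sets carry their names. Each gene is represented by its probe set of highest mean normalized level across the 6 arrays. After a filter on dim genes 32 members were tested. Lamc3 and Itga7 did not pass it.

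The tubercle is the outgrowth that becomes the penis or the clitoris. All embryos were 12.5 days post coitum (Theiler stage 20), of mixed background and both sexes. They carried Shhtm1(EGFP/cre)Cjt, in which Cre is made from the Shh locus, and the Cre-dependent yellow reporter Gt(ROSA)26Sortm3(CAG-EYFP)Hze. Trypsin-dissociated cells had been sorted by fluorescence into a reporter-positive fraction, labelled as urethral epithelium, and a reporter-negative fraction, the rest of the dissociated tubercle cells. Both fractions come from embryos with both alleles, so the negative cells are not a control without Cre. Each fraction has 3 arrays, made from pools of 3, 5 and 2 littermates for replicates 1, 2 and 3. The comparison asks how cells of the Shh lineage differ in their transcripts from the rest of the tubercle. Values of single arrays are listed in the order of replicates 1, 2 and 3.

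A basement membrane is a thin sheet under epithelia and around muscle, nerve and vessels. A laminin is a trimer of an alpha, a beta and a gamma chain that polymerises at the cell surface, and nidogens and perlecan link this network to collagen IV. Integrins are receptors of an alpha and a beta subunit that hold matrix outside and the cytoskeleton inside. In stratified epithelia a laminin that holds the Lama3 and Lamb3 chains binds integrin alpha6 beta4, and plectin (Plec) and the epithelial form of dystonin (Dst) tie that integrin to keratin in the hemidesmosome. The tetraspanin Cd151 associates with laminin-binding integrins.

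The arrays differ in signal, and this touches every value below. The median deposited signal of named probe sets was 2.15 to 8.84 in the negative arrays and 4.73, 3.56 and 0.34 in the positive ones. Control transcripts added at hybridization averaged 1443 to 1884 on all arrays. Positive replicate 3 correlated with the other arrays at 0.325 to 0.345 (Spearman, across named probe sets), and each of the others reached at least 0.776 with another array. Results are therefore given with 6 arrays and with the 5 left without it. Deposited signals were quantile normalized, and levels and differences below are on the log2(signal + 16) scale unless called deposited, which understates changes of dim genes. A signal of 0 becomes 4 on this scale.

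Defining markers followed the labels of the sort in epithelium and less so in mesenchyme. The summed normalized signal of 7 epithelial keratin, cadherin and junction genes was 751, 1768 and 1657 in positive replicates 1, 2 and 3, against 53 to 62 in the negative arrays. For 8 mesenchymal genes it was 2808, 300 and 467, against 2500 to 3302. Positive replicate 1 thus held as much mesenchymal signal as the negative arrays. The 5 surface ectoderm genes summed to 349 to 472 in positive and 73 to 145 in negative arrays, and Shh itself to 344 to 955 against 1 to 9. Erythroid markers summed to 627 to 1495 against 3124 to 5998, 3 Schwann cell and neuron markers with a probe set to 5 to 16 against 8 to 12, and 5 muscle progenitor markers to 6 to 49 against 8 to 17. No marker was listed at 0. In bulk samples such as these, fewer cells of a type and less RNA per cell cannot be told apart.

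Of the 32 members tested, Cd151 alone passed, in the 5 arrays and not in the 6. In the 6 arrays no member passed an adjusted p of 0.05, where 0.0142% of the 14071 genes tested did (limma). In the 5 arrays Cd151 was higher in reporter-positive cells, where 0.334% of genes passed, 0.306% higher and 0.0284% lower. Without any single negative array of the 5 no member passed. Leaving positive replicate 1 or 2 out of the 5 leaves a single positive array, without spread of its own. Calls of such fits are not listed here, but counts of passing alternatives below include them. At an unadjusted p under 0.05, limma counted 6 members higher and 1 lower in the 6 arrays, where 5.17% of all genes lay, 2.3% higher and 2.88% lower. It counted 9 higher and 1 lower in the 5 arrays, where 8.74% of all genes lay, 5.22% higher and 3.52% lower. Of these 9, Lama3, Lamb3, Itgb3 and Itgb4 averaged 4.12, 4.08, 4.10 and 4.07 in the negative arrays, under the filter value of 4.22. They passed the filter only through positive arrays and could hardly have come out lower. Itga1, Itga2, Itga5 and Itgb6 also averaged under it in the negative arrays. Counts of the 6 arrays and those that follow hold some of these genes too. The groups did not overlap for 5 members higher and 1 lower in the 6 arrays, beside 6.29% and 6.99% of all genes, and for 11 higher and 1 lower in the 5 arrays, beside 12.9% and 11.3%. In the 6 arrays 22 members were above 0, as were 47.2% of all genes, and in the 5 arrays 23, beside 49.5%. The median difference of the members was 0.30 in the 6 arrays and 0.28 in the 5, where all genes tested had -0.03 and -0.003. Members had been listed with earlier results of these data known, so these counts are descriptions. With no normalization the all-gene median itself lay at -0.46 in the 6 arrays and -0.225 in the 5. The members above 0 were then 8 and 14, while 21 and 26 of 32 lay above that all-gene median.

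**Figure D1:**
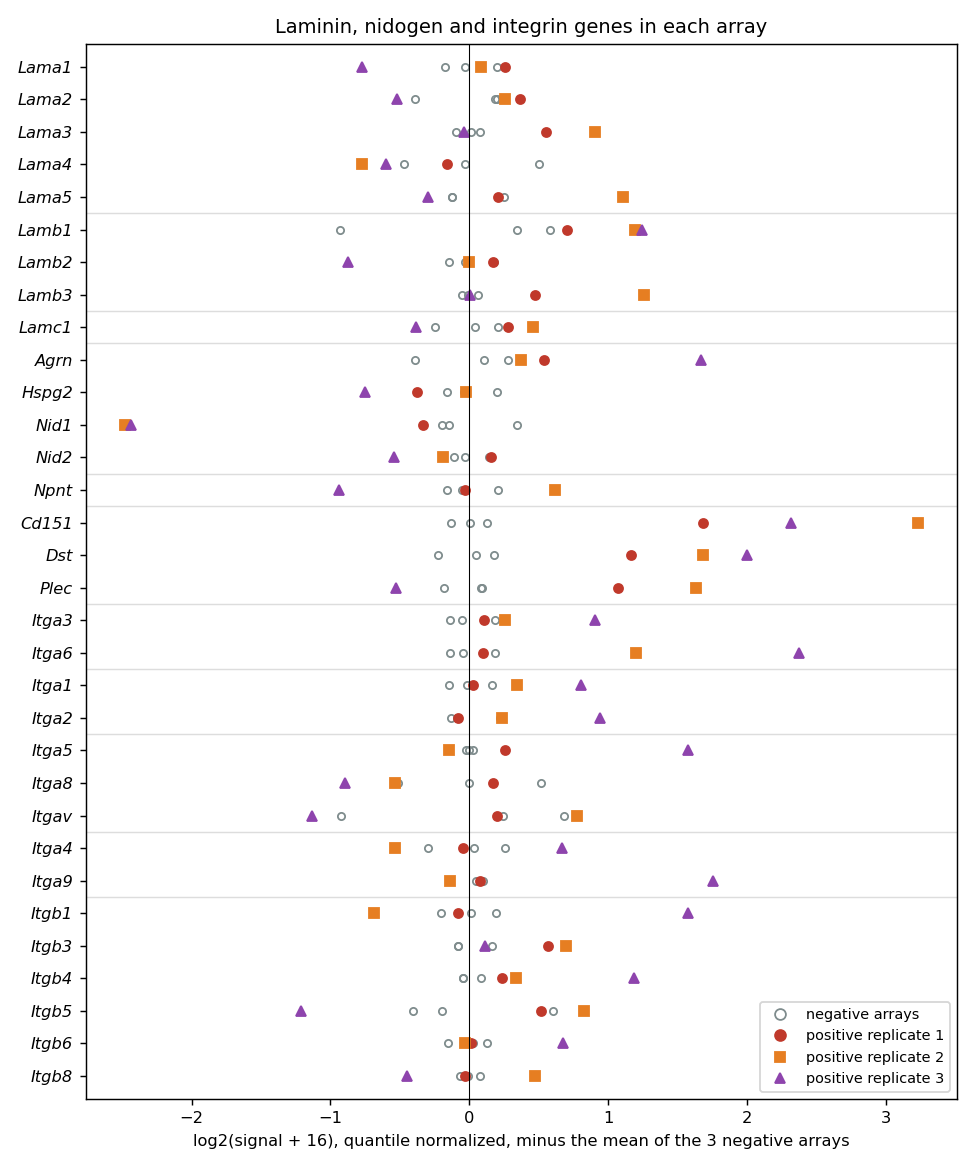
Normalized level of each tested member in every array, as the log2(signal + 16) value minus the mean of the 3 negative arrays, with grey lines between groups of like role. Open grey circles are negative arrays and filled symbols the 3 positive ones. Cd151 and Dst lie to the right in all 3 positive arrays and Nid1 far to the left in positive replicates 2 and 3, while positive replicate 3 often stands apart from replicates 1 and 2.

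Cd151, the tetraspanin partner of laminin-binding integrins, had the largest difference of all members. Its level was 5.71, 5.59 and 5.45 in negative arrays, then 7.27, 8.81 and 7.90 in positive arrays. All 3 positive arrays lay above all 3 negative ones, and positive replicate 1 was the lowest of the positive. The difference was 2.41 (SE 0.45, adjusted p = 0.283, limma) in the 6 arrays and 2.53 (SE 0.42, adjusted p = 0.0283, limma) in the 5. As deposited, the same probe set read 61.9, 73.7 and 9.76 in negative arrays, then 119, 316 and 3.58 in positive arrays. Positive replicate 3, with little signal on the whole array, was thus the lowest of all before normalization. Of the 6 probe sets of Cd151, 4 exceeded the brightest unspiked bacterial control on all 6 arrays, and these differed by 1.34 to 2.53 in the 5 arrays. The remaining 2 differed by 0.02 and 0.29. Of the bright 4, 3 have the suffix x, which the manufacturer gives to probe sets that may also bind other transcripts, and the other one, without the suffix, differed by 1.34. Leaving positive replicate 1 or 2 out of the 5 leaves a single positive array, and those fits are among the 15 alternatives counted below. The call of Cd151 in the 5 arrays was lost without negative replicate 1, 2 or 3. It was also lost with no normalization (limma, adjusted p = 0.999), median centring (1.0), a pseudocount of 64 (0.0618), no filter (0.0948), the mean of probe sets (0.216) and no intensity trend (0.186). In all it passed in 5 of 15 alternatives (limma, adjusted p from 3.91e-05 to 1.0). The difference stayed above 0 in all 15 and in all 16 of the 6 arrays.

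**Figure D2:**
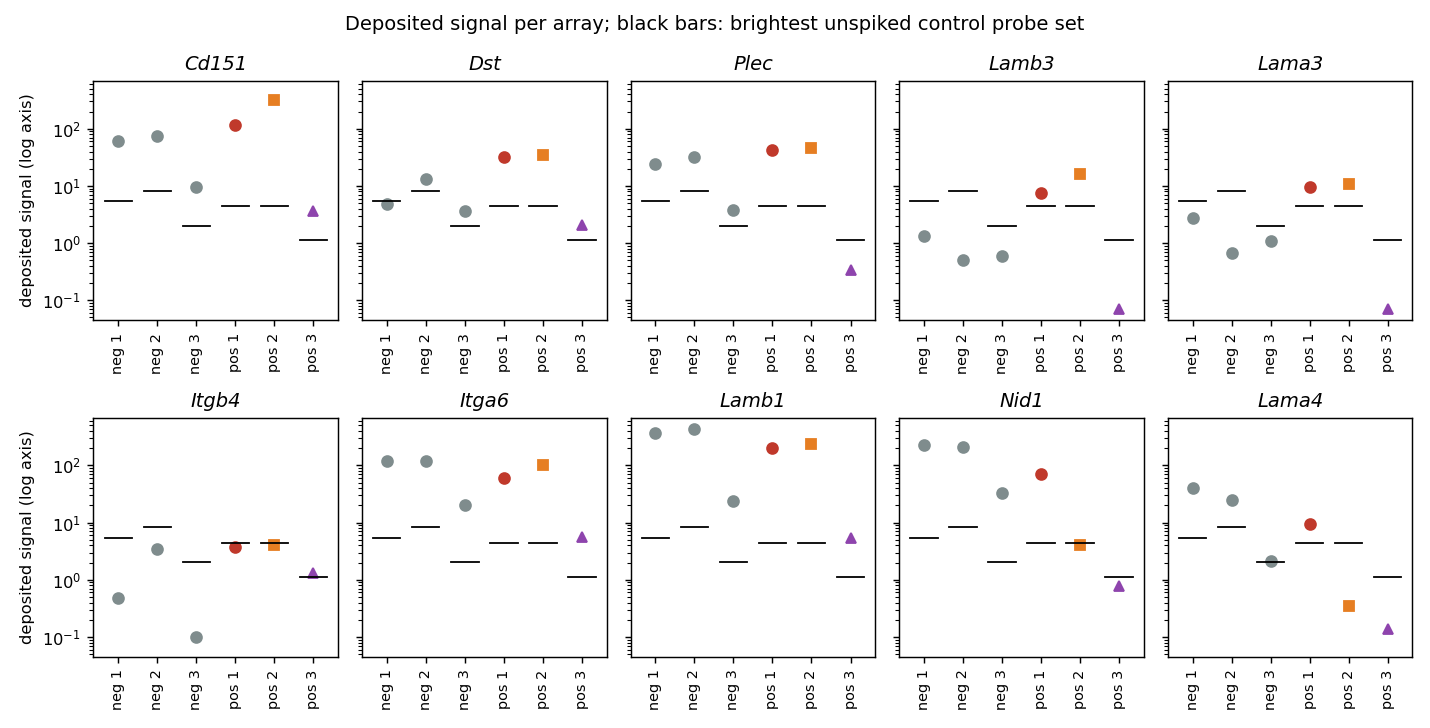
Deposited signal, on a log axis, of the probe set used for 10 members in each array, with negative arrays in grey and positive arrays in colour. Black bars mark the brightest unspiked bacterial control probe set of that array. Lamb3 and Lama3 rise above the bar in positive replicates 1 and 2 alone, Nid1 stays above it in the negative arrays and positive replicate 1, and Itgb4 hardly reaches it anywhere.

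The 2 cytoskeletal linkers of the hemidesmosome had the next highest differences in the 5 arrays. Dst encodes dystonin, a plakin with epithelial, neuronal and muscle forms. Its level was 4.23, 4.51 and 4.63 in negative arrays, then 5.62, 6.14 and 6.46 in positive arrays. The groups did not overlap, and positive arrays were higher by 1.62 (SE 0.36, adjusted p = 0.468, limma) in the 6 arrays and by 1.55 (SE 0.29, adjusted p = 0.0509, limma) in the 5. It passed in 4 of 15 alternatives of the 5 arrays, among them array weights (limma, adjusted p from 0.000526 to 0.999). Its 4 probe sets were not alike. In the 5 arrays they differed by 1.55, 1.23, 0.55 and -0.06, and the last exceeded the brightest unspiked control on 1 array only. The probe set at 1.23 read 14.55, 18.03 and 0.34 in the positive arrays as deposited, against 0.59 to 1.19 in the negative ones. That at 0.55 read 12.15, 12.88 and 0.70 against 20.01, 19.22 and 0.07. Which of the protein's forms each probe set detects is not given in the sources used here. Plec encodes plectin, the plakin that binds the beta4 tail and keratin. It measured 4.93, 4.94 and 4.66 in negative arrays, then 5.91, 6.48 and 4.32 in positive arrays. Positive replicates 1 and 2 stood above the negative arrays and replicate 3 below them. The difference was 0.72 (SE 0.52) in the 6 arrays and 1.44 (SE 0.30, adjusted p = 0.0828, limma) in the 5. A second Plec probe set above the controls on all 6 arrays differed by 0.20 in the 5 arrays. When probe sets were chosen on the 5 arrays instead, an alternative chosen after seeing the data, Cd151, Dst and Plec all passed.

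RefSeq windows upstream of transcription starts (GRCm38.p6) are shown for Cd151, the member that passed, for both listed starts of Dst, whose probe sets differ, for Lamb3, a laminin chain of epithelia, and for Nid1, the lowest member. Each holds the 250 bases before the start, 5′ to 3′ on the gene's own strand, which is the plus strand in all 5. Capitals mark matches, on either strand, to 6 motifs searched: the Sp1 box GGGCGG, the TATA box TATAAA, the AP-1 site TGANTCA, the grainyhead-like site AACCNGTT, the forkhead site TGTTTAC and the TEAD site CATTCC.
Cd151, chr7:141467112-141467361: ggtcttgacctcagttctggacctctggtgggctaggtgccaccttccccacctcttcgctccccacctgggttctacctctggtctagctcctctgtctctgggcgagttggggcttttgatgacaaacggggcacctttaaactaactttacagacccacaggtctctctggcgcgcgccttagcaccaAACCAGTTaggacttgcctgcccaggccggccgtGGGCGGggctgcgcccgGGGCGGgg
Dst, chr1:34011345-34011594: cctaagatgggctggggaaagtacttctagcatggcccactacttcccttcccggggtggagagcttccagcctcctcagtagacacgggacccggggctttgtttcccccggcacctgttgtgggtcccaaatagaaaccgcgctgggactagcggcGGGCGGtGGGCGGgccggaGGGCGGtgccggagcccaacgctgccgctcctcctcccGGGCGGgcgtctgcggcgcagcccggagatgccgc
Dst, chr1:34160010-34160259: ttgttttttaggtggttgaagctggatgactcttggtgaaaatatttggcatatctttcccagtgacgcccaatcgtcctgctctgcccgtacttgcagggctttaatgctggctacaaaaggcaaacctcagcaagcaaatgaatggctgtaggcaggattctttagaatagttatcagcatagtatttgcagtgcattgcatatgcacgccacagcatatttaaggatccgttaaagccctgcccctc
Lamb3, chr1:193301744-193301993: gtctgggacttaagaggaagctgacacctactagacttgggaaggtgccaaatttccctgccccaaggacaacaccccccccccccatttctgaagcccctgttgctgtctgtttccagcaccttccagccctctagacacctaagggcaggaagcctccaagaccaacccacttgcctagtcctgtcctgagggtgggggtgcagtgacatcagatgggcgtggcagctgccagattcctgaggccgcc
Nid1, chr13:13437352-13437601: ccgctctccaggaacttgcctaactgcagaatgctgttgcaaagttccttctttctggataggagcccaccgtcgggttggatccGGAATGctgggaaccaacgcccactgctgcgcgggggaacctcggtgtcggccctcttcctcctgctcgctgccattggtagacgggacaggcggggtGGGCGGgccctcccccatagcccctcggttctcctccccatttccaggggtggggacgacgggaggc
The Cd151 window holds a grainyhead-like match whose first base lies 59 bases before the start, and 2 Sp1 boxes nearer to it. Cd151 and Lamb3 each have a further listed start whose window is not shown. That of Cd151 holds no match and that of Lamb3 a TEAD match. Grainyhead-like factors are transcription factors of epithelia. Of all 32851 windows of this length 1.79% hold that motif. Among the 30 windows of 23 members the Cd151 window is the only one that does. The upstream Dst window has 4 Sp1 boxes and the downstream one no match. The Lamb3 window shown has none either, and that of Nid1 has an Sp1 box and a TEAD match. Sp1 boxes occur in 15 of the 30 member windows and in 32.7% of all, TEAD matches in 3 and 12.6%. The TATA box, the AP-1 site and the forkhead site occur in 12.4%, 6.75% and 3.17% of all windows and in no member window. A match is a run of letters and not a measured site.

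Lama3 and Lamb3, laminin chains of stratified epithelia, had differences above 0 that did not pass the threshold. Lama3, an alpha chain, measured 4.13, 4.03 and 4.202 in negative arrays, then 4.67, 5.03 and 4.09 in positive arrays. Lamb3, a beta chain, measured 4.07, 4.02 and 4.14 in negative arrays, then 4.55, 5.33 and 4.09 in positive arrays. In both genes positive replicates 1 and 2 lay above every negative array and replicate 3 lay among them. As deposited, Lamb3 read 7.64 and 15.9 in positive replicates 1 and 2 and 0.51 to 1.33 in the negative arrays, where the brightest unspiked controls read 4.47 and 4.41 and 2.03 to 8.28. Neither gene exceeded that control on a negative array or on positive replicate 3. The differences in the 5 arrays were 0.82 (SE 0.19, adjusted p = 0.128, limma) for Lama3 and 0.97 (SE 0.24, adjusted p = 0.151, limma) for Lamb3, and in the 6 arrays 0.47 and 0.58. Both kept their direction in all 16 alternatives of the 6 arrays and all 15 of the 5. Their negative means of 4.12 and 4.08 in the 6 arrays lay near the floor and under the filter value of 4.22. Both could hardly have come out lower, so the kept direction says little. Lamb3 passed in 4 of the 15, among them median centring (limma, adjusted p from 0.00392 to 0.999). Surface ectoderm also makes both chains, and the sum of its 5 markers was higher in the positive arrays, as given above. Krt15, Trp63 and Perp lay higher in all positive arrays than in any negative one. Krt5 and Krt14 overlapped, with Krt14 at 5.09, 5.20 and 4.30 in the positive arrays against 5.83, 4.75 and 5.72 in the negative ones. Their part in the result was not tested.

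Lamb1, the widely made beta chain, had a difference close to that of Lamb3 in the 5 arrays. Its level was 7.88, 7.64 and 6.37 in negative arrays, then 8.003, 8.49 and 8.54 in positive arrays. Positive arrays lay above all negative ones, with negative replicate 3 far below the other 2. The difference was 1.05 (SE 0.44, adjusted p = 0.725, limma) in the 6 arrays and 0.97 (SE 0.43) in the 5, and a further bright probe set gave 1.14 and 0.97. With no normalization the 6-array difference was -0.87 and with median centring -0.68, so its direction rests on the scaling. In the 5 arrays it stayed above 0 in all 15 alternatives, at 0.27 to 1.27, with 0.27 the value without normalization. As deposited, Lamb1 read 372, 441 and 23.9 in negative arrays, then 198, 235 and 5.43 in positive arrays. Before scaling, positive replicates 1 and 2 thus lay below negative replicates 1 and 2 and above negative replicate 3 alone. Lama5, the main alpha chain of embryonic and adult epithelial basement membranes, measured 4.75, 5.65 and 4.25 in the positive arrays against 4.42, 4.42 and 4.796 in the negative ones. Positive replicate 2 alone stood clear of the negative arrays. The 5-array difference was 0.72 (SE 0.31, adjusted p = 0.534, limma), and the 6-array difference of 0.34 became -0.04 without positive replicate 2. A further bright probe set of Lama5 gave 0.76 in the 5 arrays.

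Lama4, the alpha chain of vessel and mesenchymal basement membranes, had a difference below 0. It measured 4.66, 4.04 and 4.21 in the positive arrays against 5.32, 4.78 and 4.35 in the negative ones, and the groups overlapped through positive replicate 1 and negative replicate 3. Its difference was -0.51 (SE 0.30) in the 6 arrays and -0.52 (SE 0.32, adjusted p = 0.695, limma) in the 5, below 0 in every alternative. As deposited it read 9.46, 0.35 and 0.14 in the positive arrays and 39.99, 24.66 and 2.10 in the negative ones. The 6 endothelial markers summed to 44, 23 and 21 in the positive and 26, 26 and 12 in the negative arrays, and the mesenchymal sums given above were low in the same 2 positive arrays as Lama4. Their part was not tested. The other laminin chains had smaller differences in the 6 arrays than Lama5. Lama1, the early embryonic alpha chain, differed by -0.14 and 0.19 in the 6 and 5 arrays, Lama2, the muscle and nerve alpha chain, by 0.03 and 0.35, Lamb2 by -0.23 and 0.09, and Lamc1, the common gamma chain, by 0.12 and 0.41. Lama1 and Lamb2 changed sign between the 2 fits. Lamc3 exceeded the brightest unspiked control on 1 array.

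**Figure D3:**
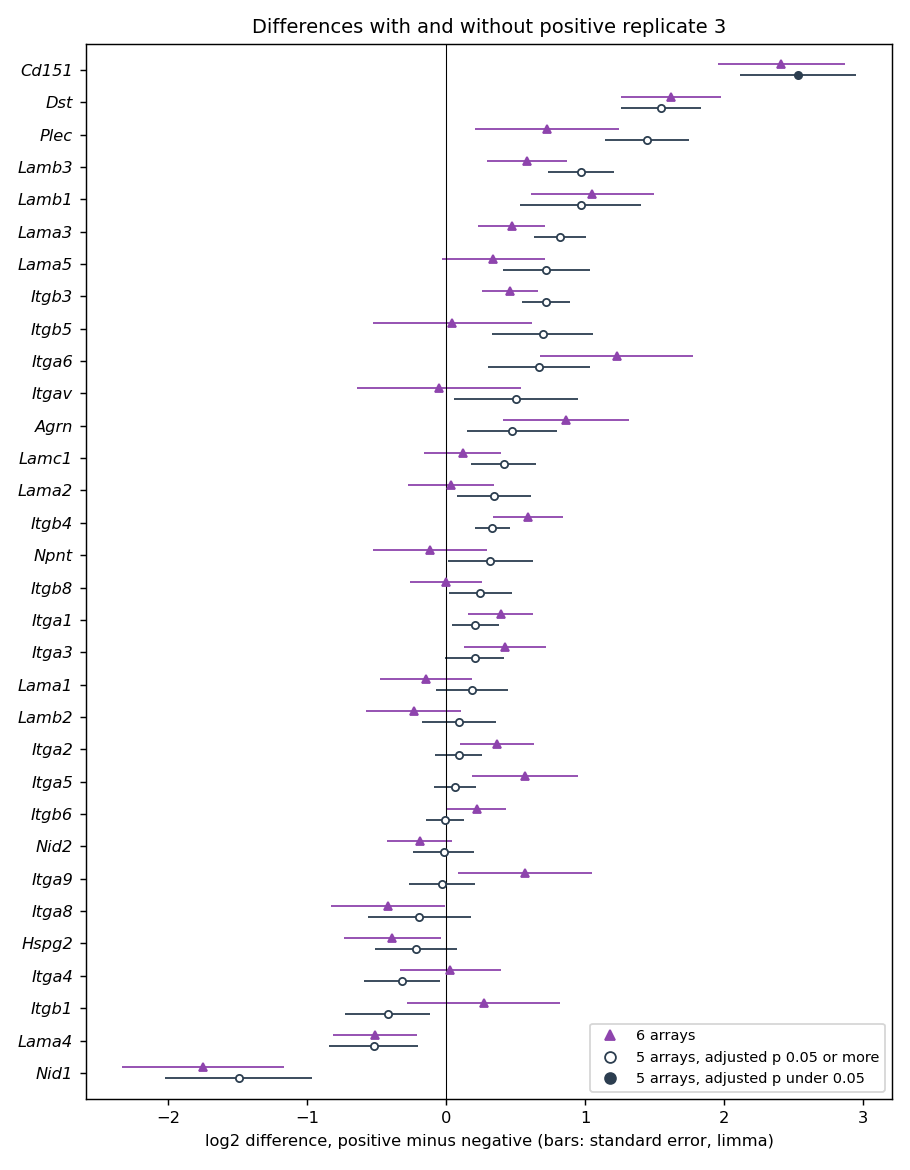
Log2 difference between positive and negative arrays for each tested member, ordered by the 5-array value. Triangles are the 6 arrays, circles the 5 without positive replicate 3, bars the limma standard error, and a filled circle an adjusted p under 0.05. Cd151 at 2.53 is the only filled circle, Dst and Plec follow at 1.55 and 1.44, and Nid1 at -1.49 lies lowest.

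Nid1, the nidogen that joins laminin to collagen IV and is made largely by mesenchyme, had the lowest difference of all members. Its level was 7.23, 6.69 and 6.75 in negative arrays, then 6.56, 4.41 and 4.46 in positive arrays. All positive arrays lay below all negative ones, but positive replicate 1 stood close to them and replicates 2 and 3 far below. The difference was -1.75 (SE 0.58, adjusted p = 0.725, limma) in the 6 arrays and -1.49 (SE 0.53, adjusted p = 0.419, limma) in the 5. With a single positive array left in the 5, Nid1 differed by -2.71 without positive replicate 1 and by -0.35 without positive replicate 2. It passed in 1 of 16 alternatives of the 6 arrays and 2 of 15 of the 5 (limma, adjusted p from 0.00766 to 1.0). As deposited, Nid1 read 229.7, 206 and 33.5 in negative arrays, then 70.5, 4.14 and 0.78 in positive arrays. It exceeded the brightest unspiked control in positive replicate 1 and in no other positive array. The mesenchymal markers had the same order, with a sum of 2808 in positive replicate 1 and 300 and 467 in replicates 2 and 3, and their part in the Nid1 result was not tested. Its 2 other probe sets were dim, exceeded the controls on at most 2 arrays and differed by 0.10 and 0.08.

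The remaining linkers and Npnt had smaller differences than Nid1, none past the threshold. Nid2, the second nidogen, measured 4.72, 4.37 and 4.02 in the positive arrays against 4.53, 4.45 and 4.70 in the negative ones, with differences of -0.19 (SE 0.23) and -0.02 (SE 0.22). Hspg2, perlecan, measured 5.11, 5.46 and 4.73 in the positive arrays against 5.68, 5.33 and 5.45 in the negative ones and differed by -0.39 (SE 0.35) and -0.22 (SE 0.29), below 0 in every alternative. Agrn, the heparan sulfate proteoglycan that binds laminin and dystroglycan, measured 6.74, 6.58 and 7.87 in the positive arrays against 6.31, 6.49 and 5.81 in the negative ones. Its positive arrays were all above the negative ones, with replicate 3 the highest. As deposited, positive replicate 3 read 3.52 and was the lowest array. Agrn differed by 0.86 (SE 0.46) in the 6 arrays and 0.47 (SE 0.32, adjusted p = 0.725, limma) in the 5, and by -0.82 and -0.14 with no normalization. Npnt, the ligand of integrin alpha8 beta1, measured 4.94, 5.59 and 4.03 in the positive arrays against 4.81, 4.92 and 5.18 in the negative ones. Its groups overlapped, and its 3 probe sets that exceeded the controls on most arrays differed by 0.14 to 0.32 in the 5 arrays and by -0.12 to -0.06 in the 6.

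Of the laminin-binding integrin subunits, Itga6 exceeded the brightest unspiked control on all 6 arrays and Itgb4 on 1. Itga6, the alpha subunit that pairs with beta4 in hemidesmosomes and with beta1 elsewhere, measured 6.42, 6.10 and 6.19 in negative arrays, then 6.34, 7.44 and 8.61 in positive arrays. Positive replicate 1 lay among the negative arrays and replicates 2 and 3 above them. The difference was 1.23 (SE 0.55, adjusted p = 0.725, limma) in the 6 arrays and 0.67 (SE 0.37) in the 5. With no normalization it was -0.60 in the 6 arrays and with median centring -0.41. The second Itga6 probe set differed by -0.02 in the 6 arrays and 0.32 in the 5. Itgb4, the beta subunit found in hemidesmosomes, measured 4.30, 4.40 and 5.25 in the positive arrays against 4.02, 4.15 and 4.02 in the negative ones. The groups did not overlap, but the deposited signal exceeded the brightest unspiked control in positive replicate 3 alone. The difference was 0.59 (SE 0.25, adjusted p = 0.725, limma) and 0.33 (SE 0.13, adjusted p = 0.458, limma). Itga3, the alpha subunit that binds laminins of epithelia with beta1, measured 4.58, 4.73 and 5.38 in the positive arrays against 4.42, 4.34 and 4.66 in the negative ones and differed by 0.42 (SE 0.30) and 0.20 (SE 0.21). Itga7, the laminin receptor of muscle, did not exceed the control on any array.

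Itgb3 was high in positive replicates 1 and 2, where the platelet markers Pf4 and Ppbp were high as well. This subunit pairs with alphaIIb in platelets and with alphav in other cells. It measured 4.26, 4.02 and 4.02 in negative arrays, then 4.67, 4.804 and 4.21 in positive arrays. Positive replicates 1 and 2 were the highest arrays, and replicate 3 lay below negative replicate 1. The difference was 0.46 (SE 0.20, adjusted p = 0.725, limma) and 0.72 (SE 0.17, adjusted p = 0.147, limma). Summed platelet and megakaryocyte signal was 128 and 137 in positive replicates 1 and 2, 11 in replicate 3 and 19 to 27 in negative arrays. In replicates 1 and 2 Pf4 measured 6.61 and 6.74 against 4.24 to 4.64 in negative arrays, and Ppbp 5.49 and 5.13 against 4.02 to 4.17. Other members of the list rose less or not at all. Gp1bb measured 4.45 and 4.73 against 4.06 to 4.39, and Gp9 4.03 and 4.22 against 4.04 to 4.06. Itga2b, the platelet partner of Itgb3, was in the same list and measured 4.77, 4.90 and 4.29 in the positive arrays against 4.60, 4.66 and 5.11 in the negative ones, with overlapping groups. The leukocyte markers summed to 112, 143 and 58 in the positive and 11 to 37 in the negative arrays. Of these, Csf1r, C1qa and C1qb were higher in positive replicates 1 and 2 than in any negative array. Ptprc, Cd68 and Fcgr3 overlapped between the groups, with Ptprc at 4.40, 4.39 and 4.02 against 4.54, 4.21 and 4.41. In replicate 3, C1qa and C1qb read 1.39 and 1.49 as deposited, beside 1.12 for the brightest unspiked control. The part of either list in the Itgb3 value was not tested.

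For Itgb1, the shared beta subunit of most matrix receptors, and for its partners Itga4 and Itga9, the difference had opposite signs with and without positive replicate 3. Itgb1 measured 5.57, 5.39 and 5.17 in negative arrays, then 5.29, 4.69 and 6.95 in positive arrays. Without replicate 3 the difference was -0.42 (SE 0.31) and below 0 in all 15 alternatives, and with it 0.27 (SE 0.55). The second bright Itgb1 probe set differed by -0.48 and -0.37 in the 6 and 5 arrays. Itga4, a receptor for fibronectin and Vcam1, differed by 0.03 and -0.32, and all 5 of its probe sets were below 0 in the 5 arrays. Itga9 measured 4.81, 4.59 and 6.48 in the positive arrays against 4.83, 4.58 and 4.77 in the negative ones, and its difference of 0.57 in the 6 arrays became -0.03 in the 5. For Itga5, the fibronectin receptor, the values were 4.45, 4.05 and 5.77 in the positive arrays against 4.21, 4.16 and 4.19 in the negative ones, with differences of 0.57 and 0.06. After normalization positive replicate 3 was the highest array for Itgb1, Itga4, Itga5 and Itga9. As deposited it read 2.43, 1.48, 1.70 and 2.09 for these genes, beside 1.12 for its brightest unspiked control. For Itgb1, Itga4 and Itga9 it was then the lowest array.

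The other RGD-binding and collagen-binding subunits did not pass in either fit. Itgb5, a vitronectin receptor subunit with alphav, measured 7.04, 7.35 and 5.31 in the positive arrays against 6.12, 6.33 and 7.13 in the negative ones. Its difference was 0.04 (SE 0.57) in the 6 arrays and 0.69 (SE 0.36, adjusted p = 0.632, limma) in the 5, where all 4 of its probe sets, each above the controls on all arrays, gave 0.45 to 0.75. Itgav, its alpha partner, differed by -0.05 and 0.50. Itga8, the nephronectin receptor of mesenchyme, measured 5.52, 4.81 and 4.45 in the positive arrays against 5.86, 5.34 and 4.83 in the negative ones and differed by -0.42 and -0.19. The collagen receptors Itga1 and Itga2 differed by 0.39 and 0.37 in the 6 arrays and by 0.21 and 0.09 in the 5. Itgb6 and Itgb8, which activate latent TGF-beta with alphav, differed by 0.22 and 0 in the 6 arrays and by -0.01 and 0.25 in the 5. Every adjusted p of these 7 genes in the 5 arrays was 0.632 or more (limma).

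**Figure D4:**
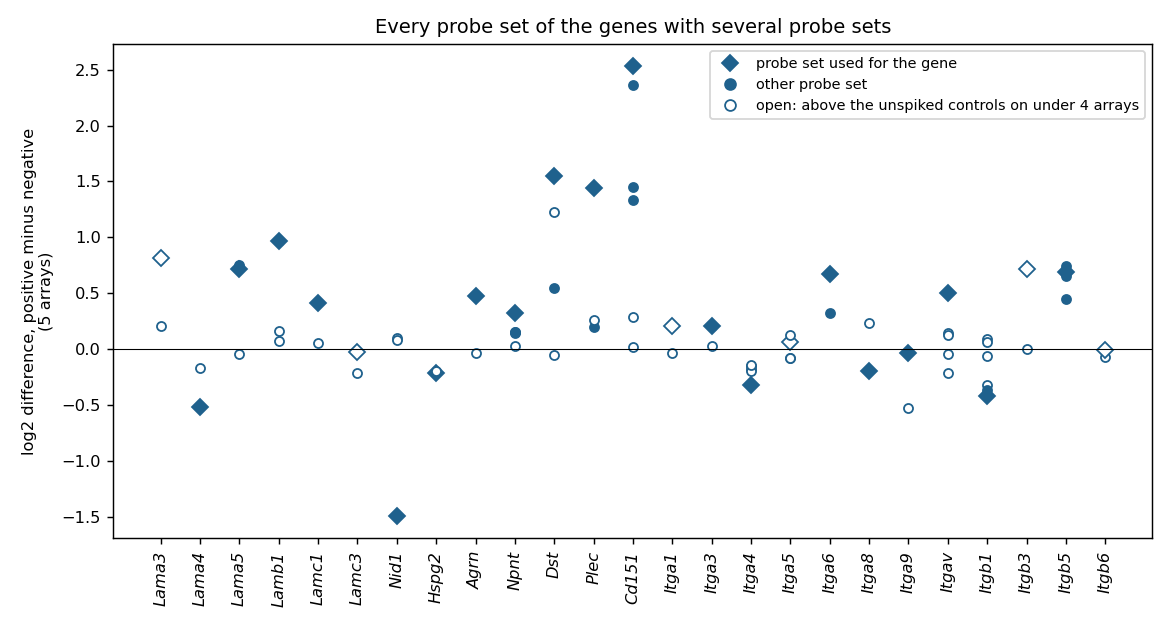
Log2 difference in the 5 arrays for every probe set of the 25 members with several. Diamonds are the probe sets used for the gene, circles the others, and open symbols those above the brightest unspiked control on fewer than 4 arrays. Most open symbols lie near 0, apart from 1 each of Dst, Lama3 and Itgb3 above it and 1 of Itga9 at -0.53, and in Cd151, Dst, Itgb5, Lama5, Lamb1, Plec, Npnt, Itga6 and Itgb1 the filled symbols of a gene lie on 1 side of 0.

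Probe sets of a gene could differ in sign. Of 25 members with several probe sets, 16 had all of them on 1 side of 0 in the 5 arrays and 10 in the 6. Of these 25 members, 9 had several probe sets above the brightest unspiked control on at least 4 arrays. All 9 had these on 1 side in the 5 arrays, and 7 did in the 6, with Itga6 and Itgb1 the others. On single arrays 25, 24 and 24 of the 34 members exceeded that control in the negative arrays and 28, 24 and 15 in the positive ones. On all 6 arrays 8 members exceeded it.

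Other basement membrane and adhesion genes had no call in either fit. Of 76 genes listed, 62 were tested, 33 of them above 0 in the 6 arrays and 34 in the 5, with medians of 0.09 and 0.05. These are 53.2% and 54.8%, beside 47.2% and 49.5% of all genes tested. Col4a3, Col4a4, Vtn, Bcam, Itga10, Itgam and Itgb2 averaged under the filter value of 4.22 in the negative arrays. They passed the filter only through positive arrays, so in the 6 arrays they could not have come out lower. None of the 62 passed an adjusted p of 0.05. At an unadjusted p under 0.05 limma counted 6 higher and 2 lower in the 6 arrays and 8 and 2 in the 5. Of all genes tested, 2.3% were higher and 2.88% lower by that measure in the 6 arrays, and 5.22% and 3.52% in the 5. Frem2, a Fraser complex protein of the epithelial side, measured 5.55, 7.46 and 8.02 in the positive arrays against 4.85, 4.65 and 4.45 in the negative ones and differed by 2.36 (SE 0.59) and 1.97 (SE 0.47, adjusted p = 0.145, limma). Col18a1, the collagen with an endostatin domain, measured 6.29, 7.69 and 8.05 in the positive arrays against 5.07, 5.69 and 6.37 in the negative ones, with differences of 1.63 (SE 0.55) and 1.33 (SE 0.47). Lad1, a protein of the anchoring filaments under hemidesmosomes, was picked after its values were seen. It measured 5.21, 6.36 and 5.19 in the positive arrays against 4.33, 4.205 and 4.32 in the negative ones, without overlap, and differed by 1.30 (SE 0.38) and 1.63 (SE 0.34, adjusted p = 0.0778, limma). The 2 lowest in the mean of both fits were integrin ligands. Tnc, a matrix glycoprotein of mesenchyme, measured 5.42, 4.54 and 4.09 in the positive arrays against 6.71, 6.19 and 5.35 in the negative ones and differed by -1.40 (SE 0.48) and -1.18 (SE 0.43), and Vcam1, a ligand of alpha4 integrins, by -1.01 (SE 0.53) and -1.50 (SE 0.44). Col17a1, the transmembrane collagen of hemidesmosomes, picked likewise, differed by 0.20 and 0.02. The list of intracellular adhesion genes had 19 tested, such as talins, kindlins and vinculin. Of these 19, 10 were above 0 in the 6 arrays and 11 in the 5, with medians of 0.03 and 0.06. They include the surface tetraspanins Cd9, with differences of 0.52 and 0.97, and Cd81, with -0.75 and -0.22.

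**Figure D5:**
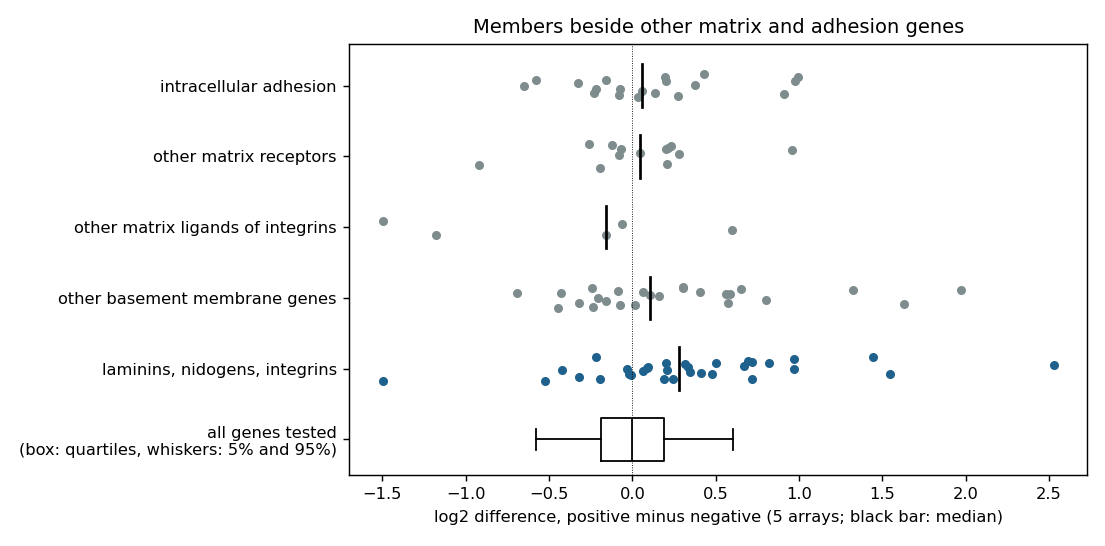
Log2 difference in the 5 arrays of the 32 tested members and of 4 lists of other matrix and adhesion genes, 1 point per gene, with the median as a black bar. The box shows all 14071 genes tested, with quartiles and the 5% and 95% points. The members' median of 0.28 lies right of the all-gene median, and the spread of the lists covers both sides of 0.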

How the data were processed

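Total RNA of sorted cells had been biotin-labelled and hybridized to Affymetrix arrays, 1 array per pool and fraction, per the labels' protocols. The authors deposited 1 intensity per probe set and array (45101 probe sets), never negative and not on a common scale. GCOS is named for 1 sample in the submitters' processing notes, and the summarization is not given in the sources used here. From these intensity values 64 controls were set aside, and the other 45037 were quantile normalized and transformed to log2(signal + 16). Gene names came from the platform table, updated through RefSeq identifiers (GRCm38.p6) for 34741 of 34945 probe sets with 1 gene. Genes averaging less than the 30th percentile over named probe sets were dropped, and the other 14071 entered limma 3.58.1 (lmFit, eBayes with intensity trend, R 4.3.3) and Benjamini-Hochberg adjustment over all of them. The 5-array fit was normalized again without positive replicate 3, with the same probe sets and filter. Background was the brightest of 27 unspiked control probe sets on each array. Members, lists and tests were chosen with earlier results of these data known. Values of every array are given for any member past an adjusted p of 0.05 and the 16 members with the largest absolute difference in the mean of both fits, others are described by role, and of the further adhesion genes the 2 highest and 2 lowest are named. Quantile normalization and the limma fit were also run on simulated gene levels with known changes and independent normal noise. The noise had the same spread for all genes of an array, unlike real genes. That run did not cover the pseudocount, the choice of probe sets or the filter. Its outcome is not given here and no result rests on it. The labels do not say whether pools of equal size share a litter. The p-values reflect only how arrays of a group spread, with each gene's variance drawn toward a trend across all genes tested. Precision is limited by the number of arrays. Alternatives covered scaling, pseudocount (4 and 64), filter, probe set rule, block, array weights, trend and each array left out.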

Additional observations from a re-analysis of the deposited data

How the results depend on the processing

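Counts of genes past the threshold depended on the setting, and the cause was not tested. In the 6 arrays 2 genes were higher and 0 lower (728 at an unadjusted p under 0.05, limma). The counts were 0 and 0 with no normalization, with averaged probe sets and with a pseudocount of 64, 23 and 1 with median centring, 5 and 1 with a pseudocount of 4, 2 and 1 without intensity trend, 255 and 225 with array weights, and 10 and 2 for replicates 1 and 2 alone, which was added after seeing the data. Leaving out 1 array gave 0 to 43 higher and 0 to 5 lower. Members past the threshold were 7 with array weights (Cd151, Dst, Itgb3, Lama3, Lamb3, Nid1 and Plec) and 0 to 1 with 1 array left out. In the 5 arrays 43 genes were higher and 4 lower. Here the counts were 0 and 0 with no normalization, 26 and 3 with a pseudocount of 64, 17 and 2 with no filter, 22 and 2 with the mean of probe sets, 10 and 1 without intensity trend, 122 and 27 with array weights, 77 and 7 with probe sets chosen on the 5 arrays, and 3 to 155 and 0 to 48 with 1 array left out. Where 1 positive array is left, it is assumed to vary like the negative ones. Members past the threshold were then 0 with no normalization, no filter, no trend, averaged probe sets or a pseudocount of 64, 5 with array weights, 3 with probe sets chosen on the 5 arrays, and 0 to 5 with 1 array left out. With median centring it was Lamb3 in place of Cd151. Of the other basement membrane and adhesion genes, 8 and 3 passed with array weights in the 6 and 5 arrays, 1 in the 5 with median centring and 1 with probe sets chosen on them, and 0 to 1 and 0 to 3 with 1 array left out.

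With the pool number as a replicate block the 6 arrays gave 2 higher and 0 lower genes and no member, as without it. The 5 arrays gave 245 and 234, with 7 members (the same 7 as with array weights in the 6 arrays, Dst at an adjusted p of 0.000526) and 8 other basement membrane and adhesion genes past the threshold, but the block of negative replicate 3 then has no positive array, so that array does not inform the difference. The numbers were not taken as pairs because the labels do not say that pools of equal size share a litter. Deviations from the group mean correlated at 0.127, 0.033 and 0.109 between same-numbered arrays and at -0.131 to 0.063 between others. The values of replicates 1 and 3 were thus the highest, and these low correlations do not settle whether the arrays are pairs.

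Members above 0 were 8 of 32 with no normalization and 14 with median centring in the 6 arrays, and 14 with no normalization in the 5. Under these 2 settings 10 and 15 of the other basement membrane and adhesion genes were above 0 in the 6 arrays and 17 and 21 in the 5. The following named values changed sign, none of them past the threshold. With no normalization the 6-array differences of Agrn, Itga3, Itga5, Itga6, Itgb5 and Lamb1 were -0.82, -0.10, -0.03, -0.60, -0.76 and -0.87, and with median centring those of Agrn, Itga6, Itgb5 and Lamb1 were -0.63, -0.41, -0.56 and -0.68. In the 5 arrays Agrn was -0.14 and -0.03 under these settings, and Itga5 was -0.00 with no normalization and -0.08 with probe sets chosen on the 5 arrays. With 1 array left out Itgb5 ranged from -0.36 to 0.69 and Lama5 from -0.04 to 0.72 in the 6 arrays, and Itga5 from -0.17 to 0.31 in the 5. Of the other comparisons of named genes with alternatives, 551 kept direction and side of the threshold, 38 newly passed and 10 no longer did. Positive replicate 3 limits the 6 arrays, since it has 24.6% of named probe sets above the unspiked controls, against 44.0% to 59.3% on the others.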
